A study of Mus musculus with 11 samples.

Results

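Arginine metabolism was followed through 7 genes in mouse brain microglia: the arginine transporters Slc7a1 and Slc7a2, the arginases Arg1 and Arg2, the inducible nitric oxide synthase Nos2, the argininosuccinate synthase Ass1 and the ornithine decarboxylase Odc1. They were found by matching the Entrez identifiers of the deposited table to mouse symbols, and all 7 were among its 16894 genes. RNA had been sequenced from 11 libraries, all labelled Cx3cr1-GFP, a green fluorescent reporter at a gene that microglia express. Of these, 3 were cultured primary microglia, 4 were resident microglia and 4 were transplanted microglia collected 3 months after transplantation, the last 2 groups by fluorescence-activated sorting. The study asked how far transplanted cells take on the expression of naive microglia. A feeding protocol is attached to every library: chow holding PLX3397 at 600 mg/kg, which blocks the survival receptor Csf1r of microglia, in 3 cycles of depletion before transplantation. Whether the donors of resident cells were fed it, and which cells were transplanted, is not in the labels. Nor is it stated that replicates are separate cultures or animals: p-values therefore cover the spread between these samples alone, and that spread may be technical.

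Arginine enters macrophages through cationic amino acid transporters. Inside the cell, arginases and nitric oxide synthases compete for it: arginase splits it into urea and ornithine, while nitric oxide synthase turns it into nitric oxide and citrulline. Ornithine decarboxylase then commits ornithine to polyamines, and argininosuccinate synthase starts the return of citrulline to arginine. Arg1 and Nos2 are widely read as markers of opposite activation states of mouse macrophages and microglia.

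Cultured libraries held 26705034 to 28219696 expected counts, resident ones 19055655 to 19965631 and transplanted ones 18692721 to 19761208. All 8 microglia markers were detected in each group, and their summed level was 3490 to 5990 CPM (counts scaled by TMM to a common library total) in cultured libraries, with resident libraries at 50600 to 56500 and transplanted libraries at 44000 to 53600. Markers of other cells differed too. Summed over 6 markers of border-associated macrophages, the level was 1870 to 2640 CPM in cultured libraries, while resident ones had 44.6 to 89.4 and transplanted ones 21.9 to 48.9. For 5 monocyte markers the sums were 153 to 219, 6.9 to 10.8 and 2.04 to 3.3 CPM, and for 5 neutrophil markers 48.8 to 53.6, 0.0902 to 0.237 and 0.0479 to 0.241 CPM, in the same order, with Mmp8 at 0 in every resident library. In that order, 5 astrocyte markers summed to 40.7 to 80.8, 2.44 to 4.79 and 3.94 to 4.21 CPM. For 3 oligodendrocyte precursor markers the sums were 15.4 to 17.5, 0.135 to 0.73 and 1.81 to 4.77 CPM. Sums of neuron, endothelial and lymphocyte markers were lower in every cultured than in every resident library. Members of these lists did not all go the same way. Of the 6 border-associated macrophage markers, 3 were called higher and 2 lower in cultured than resident cells (edgeR adjusted p under 0.05). Among the lower ones, Cd163 stood at 0.905 against 5.94 CPM. Of 4 monocyte markers tested, 3 were called higher and 1 lower, and the 2 neutrophil markers tested were higher. Of 3 astrocyte markers tested, 2 were called higher and 1 lower, and the 2 oligodendrocyte precursor markers tested were higher. The part of such cells in the levels below was not tested. In bulk RNA, fewer cells of a type cannot be told apart from less RNA per cell. Resident replicate 1 stood apart from the other sorted libraries with 12700 CPM over 10 immediate early genes, which respond to cell dissociation. The other resident libraries had 578 to 758, transplanted libraries 732 to 1030 and cultured libraries 4990 to 5520 CPM.

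Cultured microglia had higher levels of every gene tested here than resident microglia. Of the 6 genes that passed edgeR's expression filter, all 6 were called higher in cultured cells, that is, their adjusted p was under 0.05. Of the 12406 genes tested, 75.1% were called in either direction, 4704 (37.9%) as higher and 4612 (37.2%) as lower. Levels of the groups did not overlap for any of the 6 genes, against 75.8% of all genes tested. The median log2 fold change of the 6 was 4.86, against -0.02 over all genes tested. Arg2, Slc7a2 and Ass1 had 10 counts or fewer in each resident library and passed the filter through the cultured libraries, so this count and median describe the set and support nothing further. Nos2 was not tested. Deposited TPM values gave another balance over all genes, with 1993 higher and 7830 lower calls and a median log2 difference of -0.95 in limma on log2(TPM + 1). On that scale Slc7a1 (0.28, adjusted p = 0.193) and Odc1 (0.57, adjusted p = 0.0882) were not called, though both lay above that median, by 1.23 and 1.52.

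In transplanted cells 5 of the 6 genes tested were called lower than in cultured cells, the exception being Slc7a1. Over all 12284 genes tested, 72.4% were called, 4530 (36.9%) as higher and 4361 (35.5%) as lower, and levels did not overlap for 73.3%. The median log2 fold change was -2.96 for the 6 genes and 0.05 over all genes tested. Arg2 and Slc7a2, under the filter between the sorted groups, passed here through the cultured libraries, so the count and median of the 6 again describe the set only. On the log2(TPM + 1) scale the calls over all genes were 7755 higher and 1843 lower around a median of 0.98, and Odc1 was not called (-0.63, adjusted p = 0.0698).

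Between transplanted and resident cells Ass1 was the one gene called of the 4 tested. There 13.0% of 11929 genes were called, 7.17% as higher and 5.86% as lower, and levels of the groups did not overlap for 19.7%, Ass1 included. The median log2 fold change was 0.55 for the 4 genes and 0.02 over all genes tested. Arg2, Slc7a2 and Nos2 fell under the expression filter; without it Slc7a2 was called as well. These comparisons share their groups, so their values are given side by side and not as independent evidence.

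**Figure D1:**
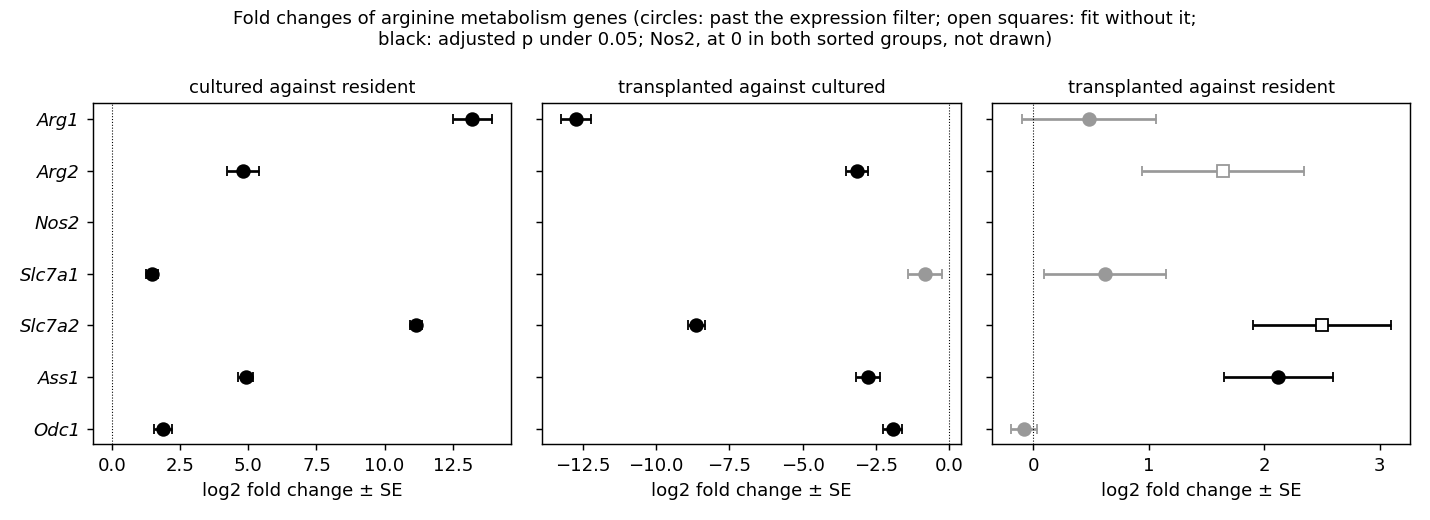
Log2 fold change with its standard error (x axis) for each gene (y axis) in the 3 comparisons; circles passed the expression filter, open squares come from the fit without it, and black marks an adjusted p under 0.05. Cultured cells exceed resident cells at all 6 genes tested, by 13.22 for Arg1, and transplanted cells at 5 of 6, with Slc7a1 not called, while against resident cells the transplanted cells differ at Ass1 and, without the filter, at Slc7a2; Nos2 is not drawn.

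Slc7a1 encodes CAT1, the housekeeping cationic amino acid transporter, and was the most variable of the genes among transplanted libraries. It lies on chromosome 5 from 148327410 to 148399904 (Entrez 11987, GRCm38.p6). The 250 bases before its start, the minus strand of chr5:148399905-148400154, are shown from RefSeq's GRCm38.p6 annotation because its level varied most among the transplanted libraries. Capitals mark a match to the AP-1 motif TGANTCA, 123 to 117 bases before the start, and to the GC box GGGCGG on the opposite strand, 36 to 31 bases before it.
Slc7a1: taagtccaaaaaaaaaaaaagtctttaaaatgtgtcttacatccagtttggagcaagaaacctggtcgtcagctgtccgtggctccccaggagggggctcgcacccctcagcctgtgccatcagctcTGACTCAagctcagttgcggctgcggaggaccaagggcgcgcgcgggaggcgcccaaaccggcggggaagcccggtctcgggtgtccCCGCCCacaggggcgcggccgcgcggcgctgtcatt
Both strands were also searched for the TATA-like motif TATAA and for the E-box, whose letters are CACGTG. The C/EBP motif TTGCNNAA and the C/EBP-ATF motif TGATGNAA completed the search, and no matches overlapped. Among 32817 windows of the same length, 6.75% held TGANTCA and 32.7% held GGGCGG. A match describes the letters only.

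Slc7a1 stood at 36.7, 49.1 and 42.6 CPM in cultured, 11.5, 22.7, 14.3 and 14.3 in resident, and 7.61, 7.61, 45.0 and 35.7 CPM in transplanted libraries. In CPM, transplanted replicates 3 and 4 thus sat at or near the cultured level and replicates 1 and 2 below every resident library. That is a 5.91-fold range within 1 group. In TPM, replicates 3 and 4 (14.71 and 11.55) lay above every cultured library (5.38 to 6.72). Cultured and resident libraries (3.69 to 7.27) overlapped on that scale. The mean of 42.8 ± 6.17 CPM in cultured cells (SD, n = 3) was 2.76-fold above the 15.7 ± 4.84 of resident cells (SD, n = 4; log2 fold change 1.47 ± 0.22 SE, edgeR adjusted p = 0.000223). Transplanted cells averaged 24.0 ± 19.3 CPM (SD, n = 4). They differed from cultured cells by a log2 fold change of -0.83 (95% interval -2.1 to 0.44, edgeR adjusted p = 0.21) and from resident cells by 0.62 (-0.56 to 1.8, adjusted p = 0.496). The groups overlapped in both comparisons, and these intervals allow differences of more than a doubling.

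Slc7a2 encodes CAT2, the cationic amino acid transporter that macrophages induce on activation (Entrez 11988, chromosome 8, 40862341 to 40922070). Cultured libraries held 264, 265 and 287 CPM. Resident libraries held 0.0902, 0.233, 0.0473 and 0.0912 CPM, which are 2, 5, 1 and 2 counts. Transplanted libraries held 0.408, 0.431, 0.604 and 1.3 CPM, or 9, 9, 13 and 27 counts. The 3 groups did not overlap. Cultured cells were 2270-fold above resident cells (log2 fold change 11.15 ± 0.23 SE, edgeR adjusted p = 4.68e-09), and transplanted cells were 394-fold below cultured cells (-8.62 ± 0.30, adjusted p = 1.45e-08). Against resident cells, Slc7a2 was under the filter. Without the filter it was 5.67-fold higher in transplanted cells (2.50 ± 0.60 SE, edgeR adjusted p = 0.0196), where 9.12% of all genes were called. On the log2(TPM + 1) scale without a filter the difference was 0.2 and not called (limma adjusted p = 0.117).

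On a per-length scale the pair of transporters had opposite makeup in cultured and sorted cells. Slc7a2 gave 86.8%, 83.2% and 86.2% of their summed TPM in cultured libraries, where resident libraries had 0.44% to 0.954% and transplanted libraries 1.14% to 4.8%. None of these ranges overlapped. The mean difference was 84.7 percentage points between cultured and resident cells and -82.0 points between transplanted and cultured cells (exact permutation tests, two-sided, p = 0.0571, the smallest that 3 against 4 libraries allow). Transplanted cells exceeded resident cells by 2.69 points (exact permutation p = 0.0286, the smallest that 4 against 4 allow). After adjustment over the 6 share tests each of the 3 stood at 0.0686, so none passed.

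**Figure D2:**
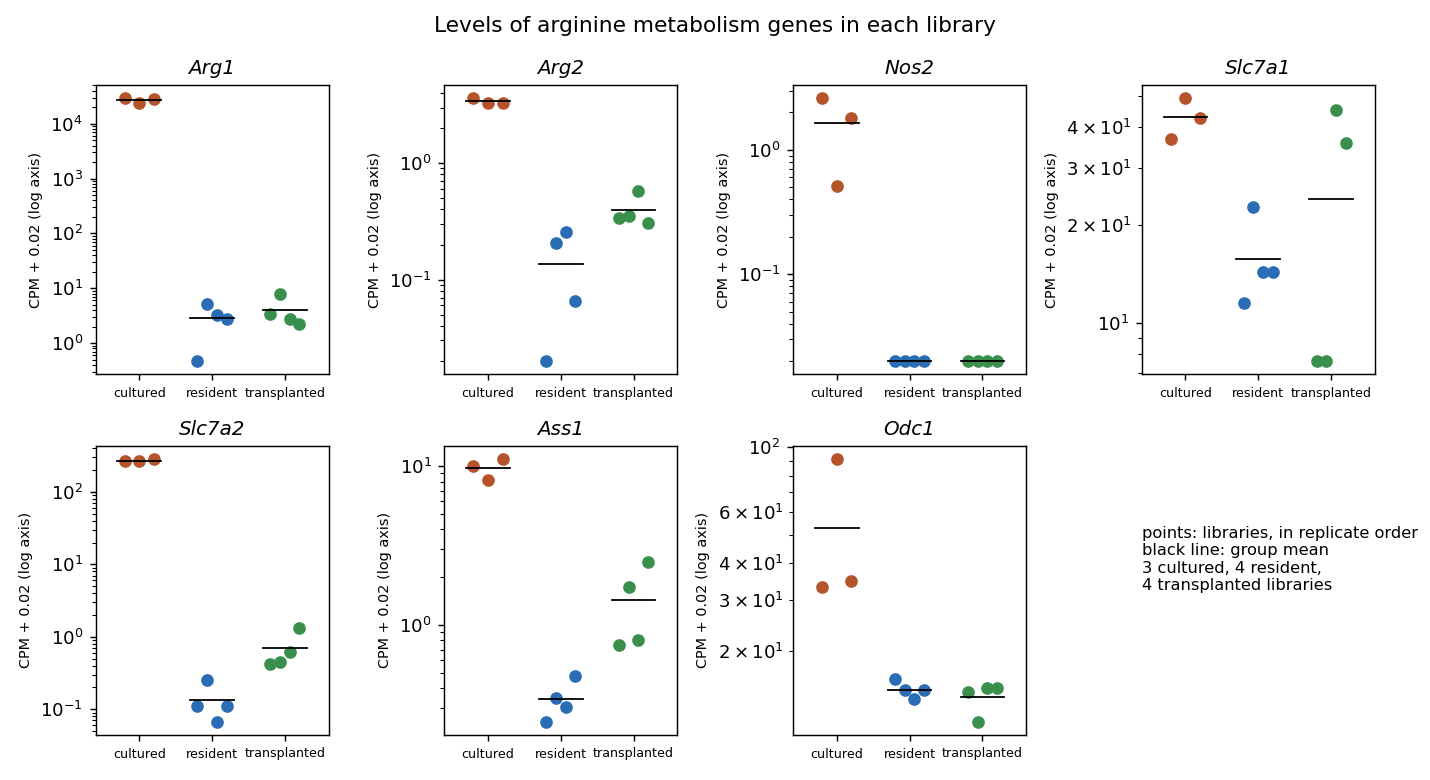
CPM plus 0.02 on log axes (y) in each library of the cultured, resident and transplanted groups (x), 1 panel per gene; points are libraries and black lines group means. Arg1 and Slc7a2 separate cultured from sorted libraries by over 100-fold, the 4 transplanted libraries split at Slc7a1, and Nos2 is at 0 in every sorted library.

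Arg1 encodes the cytosolic arginase (Entrez 11846, chromosome 10, 24915207 to 24927470). It reached 29300, 23900 and 28100 CPM in the cultured libraries, which was 2.16%, 1.82% and 2.13% of their expected counts. Ranked by TPM it was gene 4, 5 and 4 of those libraries. Resident libraries held 0.451, 5.17, 3.17 and 2.74 CPM and transplanted libraries 3.35, 7.8, 2.69 and 2.17 CPM. Cultured cells were thus far above the sorted cells, and the sorted groups overlapped. The lowest level was in resident replicate 1, the sorted library with high immediate early genes. Fitted folds were 9550 between cultured and resident cells (log2 fold change 13.22 ± 0.72 SE, edgeR adjusted p = 3.55e-07) and 6750 between cultured and transplanted cells (-12.72 ± 0.50, adjusted p = 2.9e-08). Transplanted and resident cells differed by 0.48 (95% interval -0.80 to 1.76, edgeR adjusted p = 0.633), and by 0.11 without resident replicate 1.

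Arg2 encodes the mitochondrial arginase (Entrez 11847, chromosome 12, 79130788 to 79156301) and was low in every library. Its levels were 3.6, 3.24 and 3.29 CPM in cultured, 0, 0.186, 0.237 and 0.0456 in resident, and 0.317, 0.335, 0.557 and 0.289 CPM in transplanted libraries. The 3 groups did not overlap, and the 0 of resident replicate 1 allows up to 0.135 CPM, a limit that covers counting error only. Cultured cells were 28.2-fold above resident cells (4.82 ± 0.59 SE, edgeR adjusted p = 6.49e-05) and transplanted cells 8.85-fold below cultured cells (-3.15 ± 0.36, adjusted p = 2.78e-05). Without the filter, transplanted cells differed from resident cells by 1.64 ± 0.70 (edgeR adjusted p = 0.186), which did not pass.

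Arg1 made up most arginase RNA in every library. Its share of the summed TPM of both arginases was 99.99% in each cultured library, with resident libraries at 92.7% to 100% and transplanted libraries at 82.0% to 95.7%. The mean fell by 7.73 percentage points from resident to transplanted cells, a difference that did not pass (exact permutation test, two-sided, p = 0.0571, adjusted 0.0686). It differed by -10.9 points between transplanted and cultured cells (exact permutation p = 0.0571, adjusted 0.0686) and by 3.16 points between cultured and resident cells (exact permutation p = 0.229). In sorted libraries these shares rest on few reads: Arg2 counts were 0 to 5 in resident and 6 to 12 in transplanted cells.

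**Figure D3:**
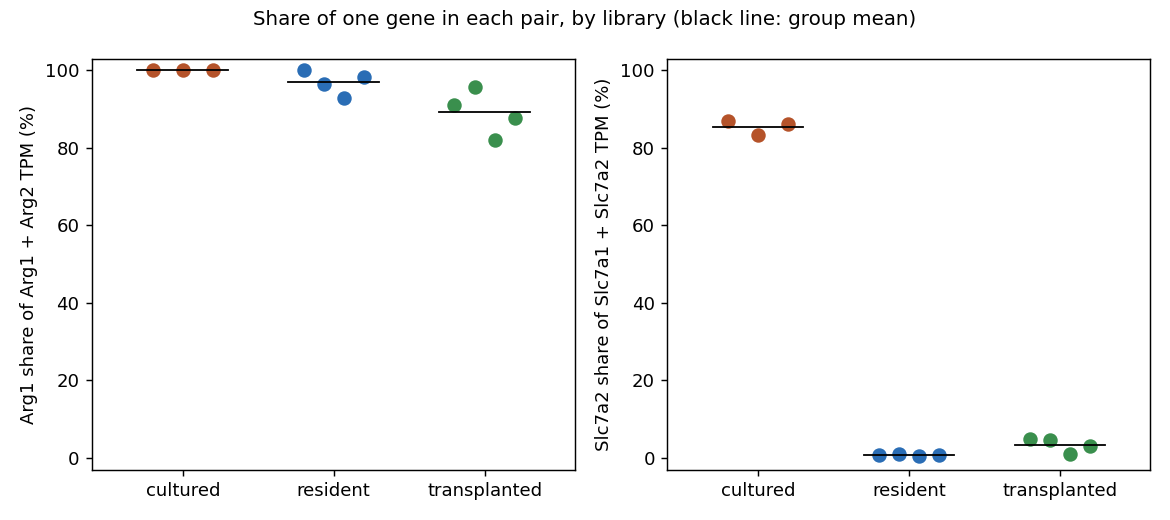
Arg1 share of the summed TPM of Arg1 and Arg2 (left, %) and Slc7a2 share of the summed TPM of Slc7a1 and Slc7a2 (right, %), on the y axes, in each library by group (x); black lines are group means. Arg1 holds at least 82.0% everywhere, and Slc7a2 moves from at least 83.2% in cultured to at most 4.8% in sorted libraries.

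Nos2, the inducible nitric oxide synthase (Entrez 18126, chromosome 11, 78920787 to 78960226), was detected in cultured libraries only, and weakly. It had 54, 10 and 36 counts there, or 2.59, 0.492 and 1.77 CPM, and 0 counts in all 4 resident and all 4 transplanted libraries. Against the limit of 3 counts over a group, the pooled cultured level of 1.62 CPM was at least 46.9-fold higher than resident and at least 46.2-fold higher than transplanted cells, and the weakest cultured library at least 14.2-fold and 14.0-fold. The exact 95% counting interval of the pooled ratio starts lower than that floor gives, at 37.5 and 36.9. A level under that limit in sorted cells was not detectable at this depth. In cultured cells its mean of 0.43 TPM was far below the 21800 TPM of Arg1 on the same per-length scale.

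Ass1, the enzyme that joins citrulline to aspartate (Entrez 11898, chromosome 2, 31470270 to 31520670), was the gene called between transplanted and resident cells. The 250 bases before its start, the plus strand of chr2:31470020-31470269 in RefSeq's GRCm38.p6 annotation, are shown for that reason. Capitals mark a GC box GGGCGG 63 to 58 bases and an E-box CACGTG 36 to 31 bases before the start, and the latter motif occurred in 6.02% of the windows searched.
Ass1: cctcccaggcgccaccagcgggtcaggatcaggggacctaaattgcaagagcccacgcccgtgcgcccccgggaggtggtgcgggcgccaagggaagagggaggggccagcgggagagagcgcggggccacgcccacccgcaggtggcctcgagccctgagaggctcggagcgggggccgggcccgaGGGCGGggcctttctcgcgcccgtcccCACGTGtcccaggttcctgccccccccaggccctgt
Ass1 stood at 9.94, 8.21 and 11.1 CPM in cultured, 0.226, 0.326, 0.284 and 0.456 in resident, and 0.725, 1.72, 0.789 and 2.46 CPM in transplanted libraries. The groups did not overlap: every transplanted library lay above every resident and below every cultured library, and replicates 2 and 4 were the highest of the transplanted ones. Group means were 9.75 ± 1.45 (SD, n = 3), 0.323 ± 0.0978 and 1.42 ± 0.827 CPM (SD, n = 4 each). Transplanted cells were 4.36-fold above resident cells (log2 fold change 2.12 ± 0.47 SE, 95% interval 1.08 to 3.17, edgeR adjusted p = 0.0142). The call held without each library in turn, at adjusted p = 0.009 to 0.0478 and log2 fold changes of 1.72 to 2.34. It rests on 16 to 51 counts per transplanted and 5 to 10 per resident library. Ass1 passed the filter through the transplanted libraries, and without the filter it stood at 2.11 (edgeR adjusted p = 0.0125). Beside it, the marker sum of monocytes was lower in every transplanted than in every resident library. Of 2 monocyte markers tested, 1 was called higher and 1 lower in transplanted cells. The marker sum of border-associated macrophages overlapped between these groups, while 5 of the 6 markers were called lower in transplanted cells. Summed over 5 endothelial markers the level was 23.6 to 28.5 CPM in transplanted and 46.4 to 62.7 in resident libraries. Members of that list were split, however: of 3 endothelial markers tested, 2 were called higher and 1 lower in transplanted cells. Over 4 lymphocyte markers the sums were 0.482 to 1.05 CPM in transplanted and 17.8 to 26.7 in resident libraries, with Cd3e at 0 in every resident library. The sum of 3 oligodendrocyte precursor markers was higher in every transplanted library, at 1.81, 1.82, 3.72 and 4.77 CPM against 0.135 to 0.73 in resident ones. Replicate 4 was the highest, as for Ass1, but replicate 3 came next for this sum and replicate 2 for Ass1. Of the 3 markers only Cspg4 was tested, with means of 2.71 CPM in transplanted and 0.163 CPM in resident cells. Cspg4 was called higher in transplanted cells, by a log2 fold change of 4.02. The part of these cells in this result was not tested. Cultured cells were 30.1-fold above resident cells (4.91 ± 0.28 SE, edgeR adjusted p = 5e-07), and transplanted cells were 6.82-fold below cultured cells (-2.77 ± 0.41, adjusted p = 0.000173).

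Odc1 encodes the rate-limiting enzyme of polyamine synthesis (Entrez 18263, chromosome 12, 17544808 to 17551502). Its levels were 33.1, 91.3 and 34.6 CPM in cultured, 16.0, 14.6, 13.6 and 14.6 in resident, and 14.4, 11.4, 14.9 and 14.9 CPM in transplanted libraries. Cultured replicate 2 stood alone, and every cultured library was above every sorted library. Cultured cells were 3.64-fold above resident cells (1.87 ± 0.33 SE, edgeR adjusted p = 0.000669) and transplanted cells 3.8-fold below cultured cells (-1.93 ± 0.33, adjusted p = 0.000494). Without cultured replicate 2 these folds were 2.28 and 2.43, both still called. Sorted groups differed by -0.08 (95% interval -0.31 to 0.16, edgeR adjusted p = 0.678), the narrowest interval of the 4 genes tested there. On the per-length scale, cultured TPM of 14.37, 37.16 and 15.71 overlapped the resident range of 12.54 to 14.82.

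The order of levels, by mean TPM, changed between cultured and sorted cells. In cultured cells Arg1 led at 21800 TPM, followed by Slc7a2 at 36.3, Odc1 at 22.4, Ass1 at 6.98, Slc7a1 at 6.18, Arg2 at 2.84 and Nos2 at 0.43. Resident cells ran from Odc1 at 13.4 TPM through Slc7a1 at 5.02, Arg1 at 4.88, Ass1 at 0.483, Arg2 at 0.21 and Slc7a2 at 0.0375 to Nos2 at 0. Transplanted cells had the same order, with means of 13.0, 7.73, 6.88, 2.19, 0.688, 0.193 and 0 TPM. Some neighbours in these orders overlapped between libraries, and their order does not exceed that spread. They were Slc7a2 with Odc1 and Ass1 with Slc7a1 in cultured cells. In resident cells Slc7a1 overlapped with Arg1, and Arg2 with both Ass1 and Slc7a2. In transplanted cells Odc1 overlapped with Slc7a1, Slc7a1 with Arg1, and Arg1 with Ass1. The largest change of place was that of Slc7a2, from second to sixth.

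Around these genes, 107 genes in 7 lists covered the rest of the pathway and its regulators. Cultured cells differed from resident cells at 69 of the 92 tested (75.0%, as over all genes), with 45 higher and 24 lower. On the log2(TPM + 1) scale the balance reversed, with 19 higher and 58 lower of 90. Arginine entry, synthesis and urea cycle genes were 3 higher and 5 lower of 11 (median log2 fold change -0.51), and 0 higher and 7 lower of 10 on the log2(TPM + 1) scale. The exchanger subunit gene Slc7a7, which exports arginine from cells, was lower (-1.96 ± 0.12 SE, edgeR adjusted p = 6.62e-07), as was Slc38a9, the lysosomal arginine sensor (-1.68, adjusted p = 1.05e-06). Asl, whose product follows Ass1 in arginine synthesis, was higher by 1.09 (adjusted p = 5.23e-06), a call that ended on the log2(TPM + 1) scale (0.01, limma adjusted p = 0.938). The heavy chain gene Slc3a2 differed by -0.19 (edgeR adjusted p = 0.0957) and was called lower on that scale (-1.19, limma adjusted p = 1.02e-06).

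Cultured cells had 13 of 23 polyamine genes higher and 3 lower (median 0.31), led by Eif5a, the translation factor modified from spermidine (2.17 ± 0.10 SE), and Oaz1, the antizyme that limits Odc1 protein (1.78 ± 0.12). On the log2(TPM + 1) scale the split was 2 higher and 17 lower of 22, with Eif5a and Oaz1 still higher (1.07 and 0.66). The split of this list thus follows the scaling; counts of Eif5a are also uncertain, since near-identical copies can share reads. The spermidine synthase gene Srm and the acetyltransferase gene Sat1 differed by -0.53 (edgeR adjusted p = 0.187) and -0.16 (adjusted p = 0.226). Both were called lower on the log2(TPM + 1) scale, at -1.76 and -0.74 (limma adjusted p = 0.0012 and 6.54e-05).

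Of 11 nitric oxide genes tested, cultured cells had 6 higher and 3 lower (4 and 6 on the log2(TPM + 1) scale). Gch1, which starts synthesis of the cofactor tetrahydrobiopterin, was 6.89-fold higher (2.78 ± 0.35 SE, edgeR adjusted p = 7.54e-05). Nostrin, a trafficking partner of endothelial nitric oxide synthase, was 88.1-fold higher, and Nos1ap, an adaptor of the neuronal enzyme, was 6.53-fold lower (edgeR adjusted p = 1.81e-07 and 3.11e-07). The endothelial enzyme gene Nos3 was not tested, at 0.583 CPM in cultured, 0.0802 in resident and 0.0343 in transplanted cells.

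Among 18 regulators of Arg1 and Nos2, 7 were called higher in cultured cells and 7 lower (5 and 12 on the log2(TPM + 1) scale). The nuclear receptor gene Pparg stood at 44.2 ± 5.26 CPM (SD, n = 3) against 1 count over all resident libraries, a ratio of 3830 with an exact 95% counting interval of 687 to 151000 (edgeR adjusted p = 1.48e-08). Il10ra, a chain of the interleukin 10 receptor, was 12.2-fold lower (edgeR adjusted p = 5.28e-07). Alternative activation markers were higher at 7 of 10 and lower at 1 (median 4.61). Clec7a, the beta-glucan receptor dectin-1, was 140.0-fold higher and Cd163, a haemoglobin scavenger receptor, 6.42-fold lower (edgeR adjusted p = 6.36e-09 and 0.00049).

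Transplanted cells differed from cultured cells at 65 of 90 list genes (72.2%, with 72.4% over all genes), 25 higher and 40 lower. Here too the balance reversed on the log2(TPM + 1) scale, with 57 higher and 21 lower of 89. Polyamine genes were 3 higher and 11 lower of 23, and 17 higher and 2 lower of 22 on the log2(TPM + 1) scale. Alternative activation markers were lower at 8 of 9, and 1 higher and 8 lower on that scale. Slc7a7 (2.04 ± 0.14 SE, edgeR adjusted p = 7.6e-07) and Slc38a9 (1.98, adjusted p = 3.28e-07) were higher in transplanted cells, while Pparg was 278-fold and the transcription factor gene Klf4 115-fold lower (adjusted p = 1.48e-08 and 2.03e-07).

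Transplanted and resident cells differed at 16 of 89 list genes (18.0%, against 13.0% over all genes), 8 higher and 8 lower. Of these, 7 were among the 9 alternative activation markers tested, 3 higher and 4 lower. With each library left out in turn this list had 5 to 7 calls. Fn1 and Tgm2, both called higher, kept their calls in 3 and 5 of 8 such fits. Clec7a was 4.31-fold higher in transplanted cells (2.11 ± 0.23 SE, edgeR adjusted p = 0.000229), and Cd163 and the lectin gene Clec10a were lower, by -6.81 and -3.80 on the log2 scale (adjusted p = 2.33e-05 and 0.000291). Cd163 and another gene called lower, Mrc1, also belong to the border-associated macrophage markers, of which 5 of 6 were called lower in transplanted cells. The part of those cells in this difference was not tested. In the arginine, polyamine and nitric oxide lists the calls were 1 of 11, 1 of 23 and 3 of 10, beside the 13.0% over all genes. With each library left out in turn they were 0 to 2, 0 to 1 and 1 to 2. Ddah2, of the nitric oxide list, was 1.49-fold lower (edgeR adjusted p = 0.007). Creatine kinase B gene Ckb was 1.35-fold lower (adjusted p = 0.00403). Both calls held without each library in turn. Slc38a9 (0.28, edgeR adjusted p = 0.0279), the polyamine oxidase gene Paox (0.35, 0.0397), the interleukin 4 receptor gene Il4ra (0.62, 0.0281), Irf1 (0.28, 0.031) and Nos1ap (-0.38, 0.0314) lost their calls without some of the libraries: with 1 library left out, Slc38a9 and Paox were called in 2 of 8 fits, Il4ra and Irf1 in 3 and Nos1ap in 4.

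**Figure D4:**
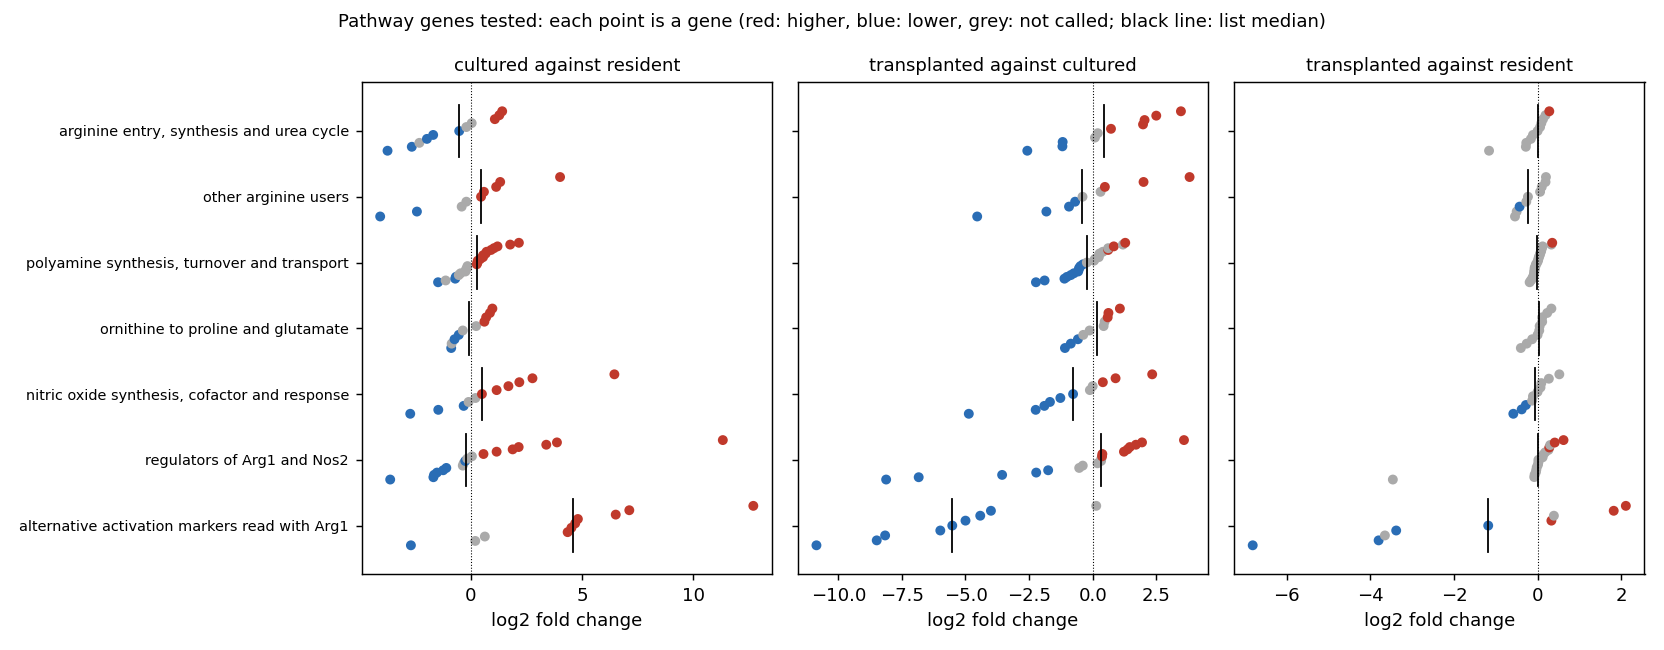
Log2 fold changes (x axis) of the tested genes of 7 lists (y axis) in the 3 comparisons; each point is a gene, red if called higher, blue if called lower and grey if not called, and black lines are list medians. List genes spread widely in both comparisons with cultured cells (45 higher and 24 lower against resident cells on this count scale, 19 and 58 on the log2(TPM + 1) scale). Between transplanted and resident cells (8 higher and 8 lower) list medians lie at -0.23 to 0.05, except -1.18 for the alternative activation markers.

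Over the 11 libraries, the genes most like each member were found by the root mean square difference of centred log2 CPM profiles among 12553 genes. For Ass1 the nearest were Cdca8 (0.20), Top2a (0.38) and Bub1 (0.40), against a median of 2.01 over all genes. In transplanted libraries Top2a, a topoisomerase gene of dividing cells, stood at 5.66, 9.14, 4.97 and 21.9 CPM, and Cdca8, a mitotic gene, at 2.22, 3.73, 2.83 and 7.9 CPM. Both were highest in replicates 4 and 2, the replicates with the highest Ass1. Their resident ranges were 2.66 to 4.8 and 0.857 to 1.55 CPM.

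For Slc7a1 the nearest were Mthfd2 (0.32), Gar1 (0.44) and Lonp1 (0.46), with a median of 1.13 over all genes. Mthfd2, a mitochondrial folate enzyme, stood at 8.88, 9.76, 36.8 and 47.8 CPM in transplanted libraries, so replicates 3 and 4 were again the high ones. Odc1 lay nearest to Zfp703 (0.15), Pitpna (0.16) and Rragc (0.16). Zfp703 reached 143 CPM in cultured replicate 2, against 53.0 and 55.3 in the others.

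The nearest genes to Arg1 were Gpnmb (0.97), Fn1 (1.02) and Ear2 (1.02), to Arg2 Olr1 (0.57), Wdr54 (0.60) and Aldh1b1 (0.61), and to Slc7a2 Mgst1 (0.47), Anxa2 (0.55) and Cxcl14 (0.58). Those profiles are dominated by the gap between cultured and sorted libraries: Gpnmb, for example, ran at 2570 to 3390 CPM in cultured and 0.0902 to 2.15 CPM in sorted libraries. Reads of Ear2 can be shared with near-identical copies, so its value is uncertain. All these profiles share libraries and depth, and the likeness is a description.

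**Figure D5:**
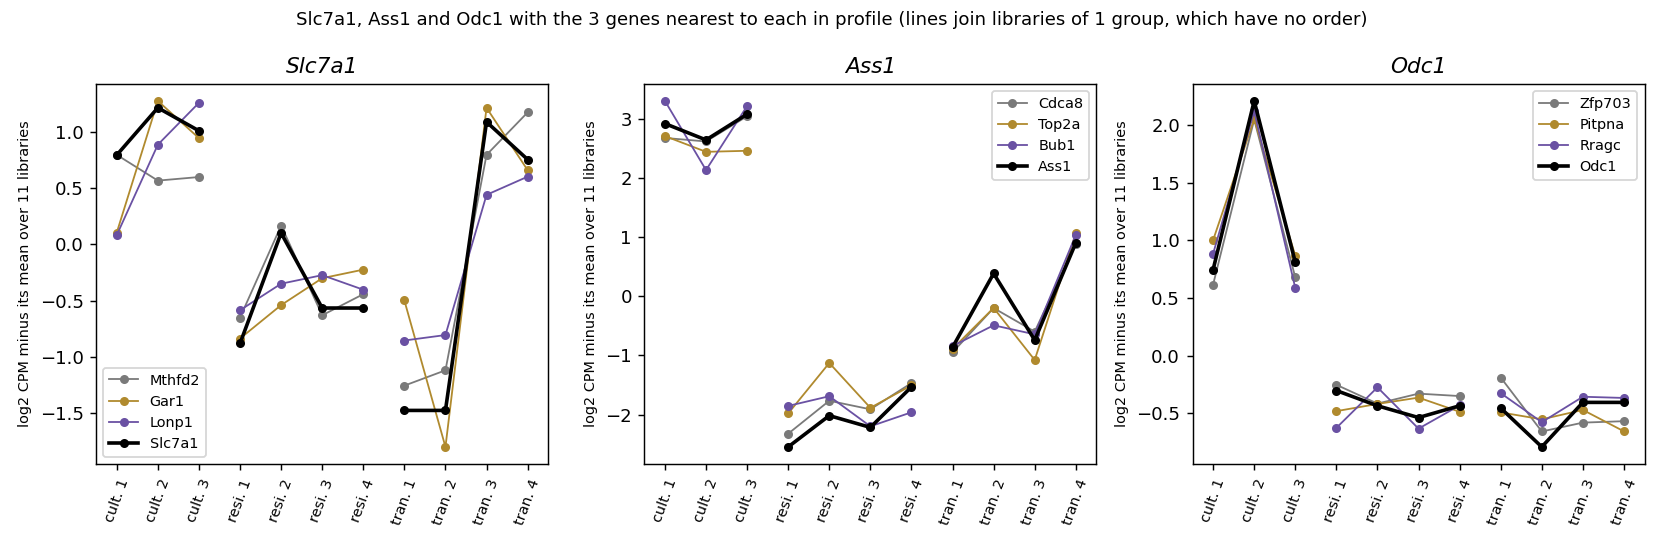
Log2 CPM minus each gene's mean over 11 libraries (y axis) in each library (x axis) for Slc7a1, Ass1 and Odc1 (black) with their 3 nearest genes (grey, gold and purple); lines join libraries of 1 group, which have no order. The 3 panels show the split of transplanted libraries at Slc7a1, the high transplanted replicate 4 at Ass1 (2.46 CPM) and the high cultured replicate 2 at Odc1 (91.3 CPM).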

How the data were processed

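Libraries were grouped by their titles. The deposited table holds expected counts, TPM and FPKM by gene and library, per the file headers; the FPKM values the authors deposited were not used. Expected counts were deposited unscaled, and TPM is the authors' value scaled for length and library. HISAT, Bowtie2 and GRCm38.p6 are named per the submitters' processing notes; the sources used here give no versions, read counter, annotation, strand or filters. RefSeq names matched 16845 of 16894 identifiers (99.7%); 49 stayed in the tests unnamed.

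Expected counts were rounded and each pair of groups fitted alone with edgeR 4.0.16 (R 4.3.3): TMM scaling, expression filter by group, quasi-likelihood test, Benjamini-Hochberg adjustment over all genes tested. The script was tested on simulated data. CPM used TMM scaling over all 11 libraries. Intervals of fold changes are at 95% from the fit's t distribution. Shares were compared by exact permutation in SciPy 1.17.1. Alternatives used other scaling, DESeq2 1.42.0, no filter, 1 fit of 11 libraries, limma 3.58.1 on TPM (pseudocounts 1 and 0.1), a replicate block and each library left out. Without molecular identifiers, floors of 3 counts and counting intervals cover counting error only.

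Per list and comparison, the rule named the 2 genes called higher and the 2 called lower with the smallest adjusted p, plus Slc7a7, Slc3a2, Asl, Srm, Sat1, Oat, Gch1 and Nos3. The text gives part of these, with other genes chosen after their values were seen (Mrc1, Fn1 and the marker Cspg4). Named too were the 3 nearest profiles to each gene (prior count 1). The genes and lists were chosen with earlier results of these data known. Promoters were in the table for 3 of the 7 genes; that of Odc1 was not used. Slc7a9, Cps1, Nags, Ly6g and Retnlg were not analysed here.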

Additional observations from a re-analysis of the deposited data

Results flagged for a closer look

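Odc1 in transplanted replicate 2, at 11.4 CPM, lay below the other 3 transplanted libraries, which held 14.4 to 14.9 CPM. Its gap to the nearest of them was 0.847 of the whole range of the group, above Dixon's critical value at 95% for 4 libraries. Of 12 groups checked it was the one past that value, and chance puts about 1 in 20 groups past it.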

How the results depend on the processing

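Over all alternatives, 241 fold changes of the 7 genes kept their direction and side of the threshold, 10 lost the call and 1 gained it; no called value changed sign. The calls lost, all on TPM, were those of Slc7a1, Odc1 and, without a filter, Slc7a2. TPM shifts the median of all genes: with a pseudocount of 0.1, Slc7a1 and Odc1 differed between cultured and resident cells by 0.33 and 0.60 around a median of -1.08, and without a filter on low TPM 0.28 (limma adjusted p = 0.259) and 0.57 (0.134). Against cultured cells, Odc1 in transplanted cells stood at -0.66 (adjusted p = 0.0737) and, without a filter, -0.63 (0.116). Between transplanted and resident cells, 2 genes instead of 1 were called without the filter on low counts and with all 11 libraries in 1 fit, where Slc7a2 entered the test; that fit called 912 genes in all, against 1554. With each library left out, the counts of the genes called were 6 to 7, 5 to 6 and 1 in the 3 comparisons; without cultured replicate 2, Nos2 was tested and called. The Slc7a2 share difference between transplanted and resident libraries was 2.23 to 3.45 points with 1 library left out, at p = 0.0571, the smallest an exact permutation test of 3 against 4 allows. Counts of list genes moved by over 1.5 times in 35 of 322 refits, all between transplanted and resident cells, where the counts are small.

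Replicate numbers did not pair the libraries: deviations of same-numbered libraries correlated at -0.07 to 0.05. With the number as a replicate block, over the numbers both groups have, Slc7a1 was called lower in transplanted than cultured cells (-1.62, edgeR adjusted p = 0.0186); this leaves out transplanted replicate 4. No other call of the 7 genes changed under the block. Depth limited Nos2, Arg2, Slc7a2 and Ass1 in sorted libraries.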

Other observations

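Genes that route ornithine to proline and glutamate, and the other users of arginine, were measured as well. Of 10 proline and glutamate genes, 4 were higher and 3 lower in cultured than resident cells; on the log2(TPM + 1) scale 0 were higher and 8 lower. Oat, which links ornithine to both amino acids, was higher by 0.98 ± 0.12 SE in counts (edgeR adjusted p = 6.42e-05) and differed by -0.13 in TPM (limma adjusted p = 0.34). Between transplanted and resident cells 0 of the 10 were called by edgeR and 0 by DESeq2, with 1 (Prodh) at an unadjusted p under 0.05, and Oat differed by -0.13 there (edgeR adjusted p = 0.197). Of 9 other arginine users tested, 5 were higher and 2 lower in cultured than resident cells, and 1 higher and 6 lower on the log2(TPM + 1) scale. Padi2, a peptidylarginine deiminase gene, was 16.7-fold lower in cultured cells (-4.06 ± 0.21 SE, edgeR adjusted p = 2.39e-07), and the creatine transporter gene Slc6a8 was 16.2-fold higher (4.02 ± 0.30, adjusted p = 2.59e-06). Against cultured cells, transplanted cells had 14.1-fold more Padi2 and 23.3-fold less Slc6a8 (edgeR adjusted p = 4.07e-07 and 1.14e-06).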
